A study of Mus musculus with 36 samples.

Results

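Late pluripotency genes are those that stay shut for much of the passage from fibroblast to induced pluripotent stem cell (iPSC) and come on only near its end. In mouse cells the network around Oct4, Sox2 and Nanog is rebuilt in steps. Genes of the naive state, of germ cells and of early embryos, among them Dnmt3l and Nr0b1, are switched on late. By then the fibroblast programme has been put down and the first epithelial genes have appeared. Zfp266 is a KRAB zinc finger protein, a class of DNA-binding proteins known as repressors of chromatin, and the RNA-seq series compared cells with and without it through reprogramming.

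The genes described here were strongly expressed in control pluripotent cells and all but silent in control cells at days 3, 5 and 7. Their mean normalised count was at least 500 in both control iPSCs and control embryonic stem cells (ESCs), and at each of the 3 days the control mean was at most 2% of the control ESC mean. Of 21442 genes in the count table, 7887 reached the level in iPSCs and ESCs and 74 of these were silent; 11 with names of the Dppa, Zfp9, Tdrd and Lefty families were set aside, which left 63. The 63 comprised 48 protein-coding genes, 11 processed pseudogenes and 4 non-coding RNAs. They are pluripotency genes by level rather than by known role, since 5 of the 63 (Klf2, Nr0b1, Dnmt3l, Rex2 and Gbx2) stood on a list of 47 pluripotency genes. The genes were chosen by mean normalised counts of control (WT) libraries alone, so a low control level at days 3 to 7 and a high one in iPSCs and ESCs are given by construction. The members closest below the ceiling were Dnah8 at 1.96% of its ESC level, Fgd1 at 1.90% and Gm6871 at 1.89%, and the genes closest above it were Pramef12 at 2.04%, Gm14443 at 2.07% and Halr1 at 2.13%.

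The series held 36 libraries, 3 for each of 12 groups, from 6 stages with a WT and a KO arm. MEFs were Cas9 TNG MKOS fibroblasts, labelled as strain 129, from E12.5 embryos that were chimeras of Cas9 TNG MKOS ESCs and host B6CBAF1 morulae; the engineered cells carry Cas9 and a doxycycline-inducible cassette of c-Myc, Klf4, Oct4 and Sox2 with an mOrange reporter. They were transduced with a Zfp266 sgRNA (KO) or a non-targeting sgRNA (WT), and the MEF libraries were harvested 96 h later. For days 3, 5 and 7 they were first mixed with a large excess of wild-type 129 MEFs, then transduced, reprogrammed in 300 ng/ml doxycycline with vitamin C and sorted for mOrange. The KO libraries of these early stages thus came from a transduced population, which may hold unedited cells and, in the unsorted MEFs, cells of the host embryo, whereas each iPSC library was a single clone grown without doxycycline, 3 from control and 3 from Zfp266-targeted cells. WT ESCs were 3 samples of the parental Cas9 line and KO ESCs 3 clones. The labels do not say whether the samples of a group came from separate cultures or animals, so p-values measure the spread between these samples only, which may be technical.

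Between 19224103 and 39610939 reads were counted per library, and a gene with 0 reads in a library could have had up to 2.31 to 5.22 normalised counts there (counting error only). Zfp266 transcript itself did not mark the KO arm: normalised counts were 2949 ± 136 in WT and 3200.0 ± 114 in KO MEFs and 1468 ± 58.1 and 1537 ± 31.4 at day 7 (SD, n = 3), it was higher in KO at day 3 (log2 fold change 0.32, FDR = 0.00883), and only in iPSCs was it lower in KO by FDR, with a log2 fold change of -0.39 (FDR = 9.95e-06). A transcript count does not measure the loss of protein after a Cas9 cut, so the labels could not be checked this way. The labelled fibroblasts carried their markers, with a summed level of 15 fibroblast markers of 492019 to 507380.4 normalised counts in WT MEFs and 751 to 851 in WT ESCs. These markers moved with the comparison: the sum was 44636 to 54416 normalised counts in WT and 15379 to 30547 in KO libraries at day 7, with 5 of the 15 lower in KO and none of them at 0. At day 5 the sums were 43515 to 54417 and 34762 to 39376, and none of the 15 passed the test. Their part in the results that follow was not tested. Neural markers also moved, with 2 of 4 lower in KO and sums of 8153 to 9558 against 2855 to 3884 at day 7. The sums of 6 trophoblast, 7 primitive endoderm and 5 immune markers at day 7 were 769.8 to 1010 against 937 to 1072, 710.0 to 1030 against 768 to 849, and 292 to 363 against 475 to 508, with 2 trophoblast markers higher and 1 lower in KO; Cd3e had no read in WT.

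By the choice of genes, the 63 stayed near the ground in WT cells at days 3, 5 and 7. Taking each gene as a percentage of its WT ESC mean, the median of the 63 was 0.194% to 0.197% in the 3 WT libraries at day 5 and 0.766%, 1.29% and 0.692% at day 7. In KO cells it was 0.318%, 0.343% and 0.395% at day 5, and then 3.90%, 4.33% and 3.33% at day 7. The KO libraries therefore lay above the WT libraries at both days, with a wide gap only at day 7, and still far under the level of pluripotent cells, where the median was 79.4% to 108% in WT iPSC clones and 87.3% to 101% in KO clones. The WT values were chosen to be low, so the gap describes the genes and is no independent support for a direction. WT replicate 2 was the most advanced WT library at day 7, with 12 of the 63 genes above 2% against 1 and 4 in the others, while the KO libraries had 49, 53 and 43. Over all genes it was WT replicate 1 that stood apart at day 7, differing from replicates 2 and 3 by 44.0 and 42.3 times the variance of counting, against 6.02 between those; without it 50 genes were higher in KO, as with it. In such bulk samples, a larger share of cells that express a gene and more RNA in each cell cannot be told apart.

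**Figure D1:**
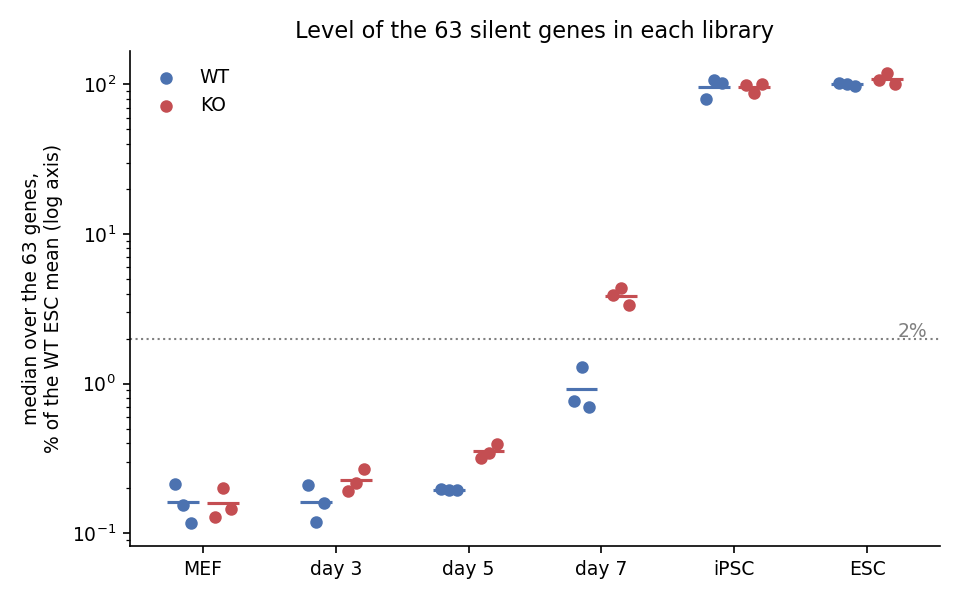
Median over the 63 genes of the level as a percentage of the WT ESC mean (log axis), with 1 point per library, bars at group means, and WT in blue and KO in red. The dotted line is the 2% ceiling that chose the genes in WT, and the KO libraries of day 7, at 3.33% to 4.33%, sit above it while every library of days 3 and 5 sits below.

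The question put to the data was which of these genes KO cells switch on by day 5 and by day 7. A gene was called where DESeq2 gave an adjusted p (FDR) under 0.05 and a change of more than 1 on the log2 scale, and it was counted as switched on where it was called higher in KO and its KO mean exceeded 2% of its WT ESC mean. By that definition 0 of the 63 genes were on at day 3, 1 at day 5 and 48 (76.2%) at day 7. Being on describes the level at that day, and some of the genes had been above 2% in MEFs. At a stricter 5% of the ESC level the counts were 0 at day 5 and 26 (41.3%) at day 7, and at 10% the day 7 count was 9. The WT arm of these tests is the arm that was chosen for low levels, which leaves more room above than below, so the counts describe the genes and are no independent support for a direction.

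In MEFs and at day 3 no gene of the set differed between KO and WT by DESeq2 or edgeR. Among all genes tested by DESeq2, 0.0287% were called higher in KO MEFs and 0.119% at day 3, and 0.0% and 0.0437% were called lower. At an unadjusted p under 0.05, DESeq2 gave 2 genes of the set higher and 1 lower in MEFs, and 6 higher and 1 lower at day 3.

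At day 5, 4 of the 63 genes were higher in KO and none was lower, against 0.808% of all 17694 genes tested being called higher and 0.379% lower. The 4 were Nr0b1, Dnah8, Klf2 and Mcf2, and edgeR called the first 2 of them only. By FDR alone, without the limit on fold, 5 genes were higher (Gm21411 was the additional one), against 4.72% of all genes. Over the 63 genes the median log2 fold change was 0.40, and in 12 of them the lowest KO library lay above the highest WT library, a pattern found in 14.1% of all genes.

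Nr0b1 (chrX:86191764-86195947), which encodes the orphan nuclear receptor DAX1 of the naive pluripotency network, had 10.7, 9.29 and 5.20 normalised counts in WT and 25.8, 53.5 and 27.0 in KO at day 5. All KO libraries exceeded all WT libraries, with a log2 fold change of 2.04 (SE 0.36, FDR = 2.91e-06; edgeR FDR = 0.00242). Its KO mean was nevertheless 0.778% of the ESC level, so it had changed without being on. By day 7 it had 95.3, 107 and 55.6 counts in WT and 265, 314 and 212 in KO, 5.80% of the ESC level (log2 fold change 1.62, FDR = 2.38e-13).

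Klf2 (chr8:72319033-72321656), a Krüppel-like transcription factor of the naive state, had 28.2, 19.6 and 16.7 counts in WT and 45.8, 72.4 and 53.9 in KO at day 5. The groups did not overlap, and the log2 fold change was 1.41 (SE 0.33, FDR = 0.000731), while edgeR placed it just outside the threshold (FDR = 0.0517). At 0.671% of its ESC level it too was not on at day 5. It reached 5.44% at day 7 with 522, 494 and 379 counts in KO against 170.4, 169 and 99.8 in WT (log2 fold change 1.67, FDR = 5.79e-09). Klf2 had been above 2% of its ESC level in WT MEFs. From MEFs to day 3 in KO it fell by 3.71 on the log2 scale (SE 0.31, FDR = 7.88e-33).

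Dnah8 (chr17:30624354-30877365), an axonemal dynein heavy chain, was the single gene on at day 5. It had 16.5, 15.5 and 17.7 counts in WT and 27.7, 53.5 and 56.3 in KO, and the KO mean was 2.17% of the ESC level (log2 fold change 1.47, SE 0.34, FDR = 0.000643; edgeR FDR = 0.0326). KO replicate 1 was well below the others, at 1.31% of the ESC level. Dnah8 was not silent from the start, being above 2% of its ESC level in WT MEFs. In KO it fell by 3.37 on the log2 scale (SE 0.32, FDR = 5.54e-26) from MEFs to day 3. It then rose by 1.46 to day 5, so it was on at day 5 without having regained its MEF level. At day 7 Dnah8 had 40.6, 45.3 and 38.1 counts in WT and 92.4, 61.3 and 89.9 in KO, and its log2 fold change of 0.97 (FDR = 0.00421) stayed short of 1. Its exons overlap 1700097N02Rik on the other strand, and whether the counting used strand is not stated, so reads of the pair may not be fully separated.

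Mcf2 (chrX:60055956-60179089) had 4.85, 3.10 and 4.16 counts in WT and 11.4, 12.6 and 10.8 in KO at day 5. These small counts did not overlap, with a log2 fold change of 1.51 (SE 0.50, FDR = 0.0401), but the call was lost by edgeR (FDR = 0.107) and on leaving out any of the 6 day 5 libraries, with the FDR reaching 0.160 without WT replicate 2. At day 7 it was 2.16% of the ESC level in KO (log2 fold change 2.03, FDR = 5.75e-07).

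**Figure D2:**
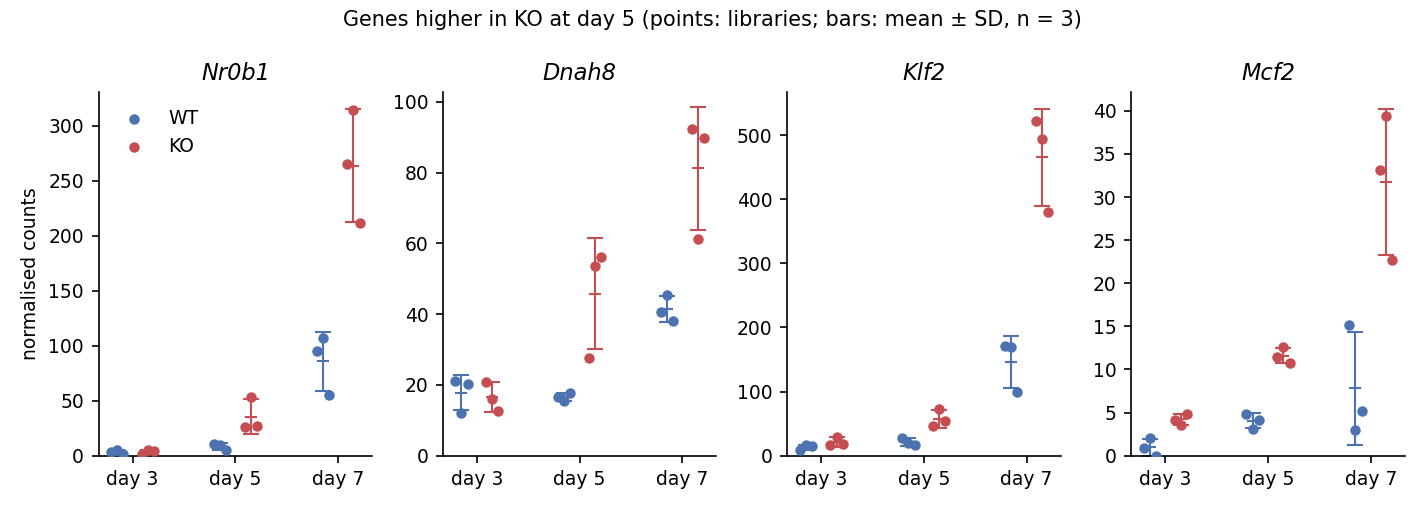
Normalised counts (linear axes from 0) of the 4 genes higher in KO at day 5, at days 3, 5 and 7, with 1 point per library and bars for mean ± SD, n = 3. KO libraries (red) separate from WT (blue) at day 5, as for Nr0b1 with 25.8 to 53.5 against 5.20 to 10.7, and for Nr0b1 and Klf2 the counts themselves are several times higher by day 7.

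No KO library was used to choose the genes, but at days 3 and 5 the KO levels lay near the low WT levels that were. Genes at so low a level have more room to rise than to fall. The counts of rises and falls are therefore not independent of the choice. From day 3 to day 5 in KO cells, 6 of the 63 genes rose (Nr0b1, Klf2, Dnah8, Mcf2, Cpsf4l and Snhg11) and 4 fell (Fgd1, Ifitm1, Cacng7 and Ina), against 5.74% of all genes rising and 3.51% falling. Nr0b1 led with a log2 change of 3.27 (SE 0.47, FDR = 1.34e-10). From day 5 to day 7, 53 of the 63 rose and none fell, against 8.84% of all genes rising and 5.34% falling, and the mean of every one of the 63 was higher at day 7; the median log2 change was 3.59. Of the 7813 genes equally high in WT iPSCs and ESCs but not silent, 456 (5.84%) rose over the same 2 days in KO. WT means also moved upward from day 5 to day 7, in 59 of the 63 genes. The rise in KO cells was thus concentrated between days 5 and 7.

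For some genes the KO libraries of day 5 had no read at all. Against the limit that 0 reads allow, 2.77 normalised counts per library, the day 7 KO mean was at least 42.7-fold higher for Aire, at least 32.3-fold for Trap1a, at least 19.6-fold for Klf15 and at least 12.2-fold for Gm46426. Napsa, also without reads at day 5, remained under that limit at day 7.

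At day 7, 50 of the 63 genes were higher in KO than in WT and none was lower, while 3.9% of all 21436 genes tested were called higher and 4.32% lower. The median log2 fold change of the 63 was 2.15, against -0.04 over all genes, and 61 of the 63 values were positive. In 53 genes all KO libraries exceeded all WT libraries, against 20.5% of all genes. EdgeR called 50 as well. Of the 7813 genes high in pluripotent cells but not silent, 205 (2.62%) were higher, and of the 11 silent genes set aside by name, 7 were. The 7813 were not chosen for low WT levels, so their share is no like-for-like comparison. Of the 50, 48 were on; Gm8935 at 1.91% and Slc27a2 at 0.704% of the ESC level changed without passing 2%.

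**Figure D3:**
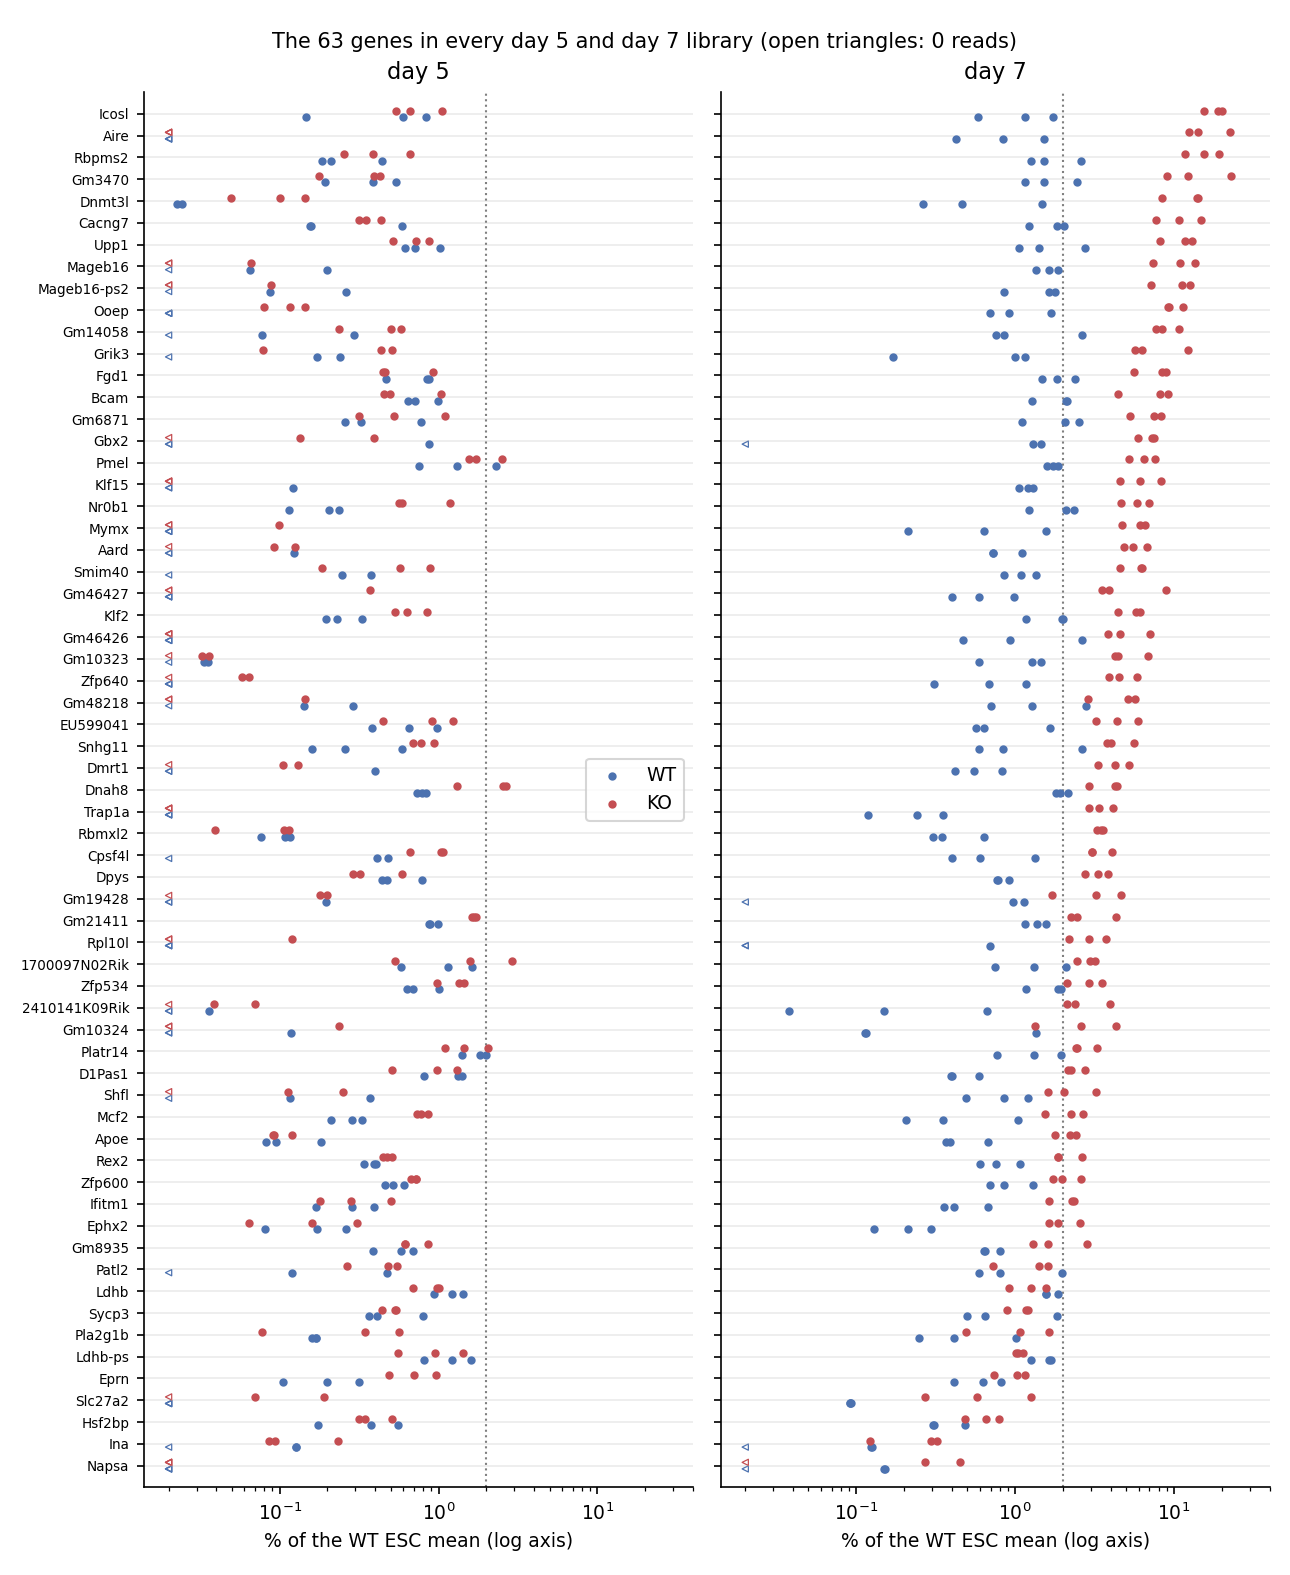
Level of each of the 63 genes in every library of day 5 (left) and day 7 (right) as a percentage of its WT ESC mean (log axes), ordered by the KO mean at day 7, with WT in blue, KO in red and open triangles for 0 reads. At day 7 the red points stand to the right of the blue ones for 53 genes, from Icosl at 18.1% downward, and the points of Ldhb, Sycp3 and Pla2g1b at the foot of the list are mixed.

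Some of the genes that went furthest were neighbours. Of the 5 genes with the highest KO level at day 7 relative to ESCs, 3 lie side by side on chromosome 10 within chr10:78030022-78083913 (GRCm38): Aire, which drives the display of tissue antigens in the thymus and is also transcribed in ESCs; Dnmt3l, the catalytically inactive partner of the de novo DNA methyltransferases, needed for methylation in germ cells; and Icosl, the ligand of the T cell costimulator ICOS. Their sequences are shown because the 3 genes moved together and their start regions differ. They are the 250 bases before each start in RefSeq (GRCm38.p6), 5′ to 3′ on the strand of the gene, with each CpG in capitals. The Aire stretch is chr10:78043611-78043860 (minus strand), that of Dnmt3l chr10:78042037-78042286 (plus strand) and that of Icosl chr10:78069118-78069367 (plus strand).
Aire: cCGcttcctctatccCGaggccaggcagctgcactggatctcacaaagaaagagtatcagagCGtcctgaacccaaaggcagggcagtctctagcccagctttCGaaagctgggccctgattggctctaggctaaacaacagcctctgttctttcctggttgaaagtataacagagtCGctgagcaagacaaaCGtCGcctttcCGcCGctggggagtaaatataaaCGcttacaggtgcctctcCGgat
Dnmt3l: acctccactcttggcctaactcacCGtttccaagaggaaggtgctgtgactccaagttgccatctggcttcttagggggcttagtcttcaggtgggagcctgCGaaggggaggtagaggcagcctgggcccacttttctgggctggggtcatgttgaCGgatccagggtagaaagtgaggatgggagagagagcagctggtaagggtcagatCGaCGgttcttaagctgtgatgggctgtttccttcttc
Icosl: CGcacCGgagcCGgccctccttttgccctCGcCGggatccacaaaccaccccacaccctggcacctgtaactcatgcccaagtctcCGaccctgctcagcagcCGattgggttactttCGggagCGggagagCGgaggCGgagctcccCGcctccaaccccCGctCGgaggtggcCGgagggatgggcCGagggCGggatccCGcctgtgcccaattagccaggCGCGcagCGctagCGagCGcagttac
The stretch of Dnmt3l holds 5 CpG and lies within the transcribed part of Aire, that of Aire holds 11 and that of Icosl 23. The annotation used here for gene positions starts Dnmt3l at 78041947 and Icosl at 78069302. By it the Dnmt3l stretch lies inside the gene and the Icosl stretch runs past the gene start, so the starts are uncertain. The exons of Aire and Dnmt3l overlap on opposite strands, so some reads could belong to either if strand was not used in counting.

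Dnmt3l had 39.6, 126 and 22.6 normalised counts in WT and 1201, 1186 and 713 in KO at day 7. The lowest KO library was above 5 times the highest WT library, although the WT libraries themselves differed widely, and the log2 fold change was 4.04 (SE 0.46, FDR = 2.53e-16). The KO mean of 1033 ± 278 was 12.1% of the 8548 ± 197 in WT ESCs (SD, n = 3). At day 5 the same gene had 8.58, 4.20 and 12.3 counts in KO, and it rose by 6.92 on the log2 scale (SE 0.53, FDR = 2.31e-37) in the following 2 days. The day 5 difference from WT, with a log2 fold change of 2.34, did not pass (FDR = 0.0628), but did without KO replicate 2 (FDR = 0.0495).

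Aire had 6.09, 11.1 and 3.09 counts in WT and 163, 102 and 89.9 in KO at day 7, with no read in any day 5 library of either arm. Its log2 fold change of 4.12 (SE 0.41, FDR = 7.79e-22) was the largest of the 63, and its KO mean of 118 ± 38.9 was 16.3% of the ESC level. Icosl had 8.11, 12.1 and 4.12 counts in WT and 133, 141 and 108 in KO (log2 fold change 3.97, SE 0.38, FDR = 2.06e-23), which at 18.1% brought it nearest to its ESC level of all 63 genes. All 3 genes had separate KO and WT groups.

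The genes on either side did not share this size of change. Pwp2 and Gatd3a on one flank and Cfap410 on the other had log2 fold changes of -0.19 (FDR = 0.104), 0.02 (FDR = 0.908) and -0.16 (FDR = 0.505) at day 7. Pfkl, a glycolytic phosphofructokinase subunit, had 0.37 (FDR = 0.00377), under the limit on fold. In WT cells at day 7 Pwp2, Gatd3a, Cfap410 and Pfkl were already at 89.7%, 88.0%, 95.3% and 45.7% of the ESC level. Aire, Dnmt3l and Icosl were chosen for at most 2% there and had more room to rise. The contrast with these flanking genes is thus in part given by the choice. Trpm2, a cation channel farther off, was higher in KO by 2.54 (FDR = 0.00297), from a mean of 3.04 to 17.8 counts, but is not a gene of pluripotent cells in these data, with a mean of 6.77 in WT ESCs.

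**Figure D4:**
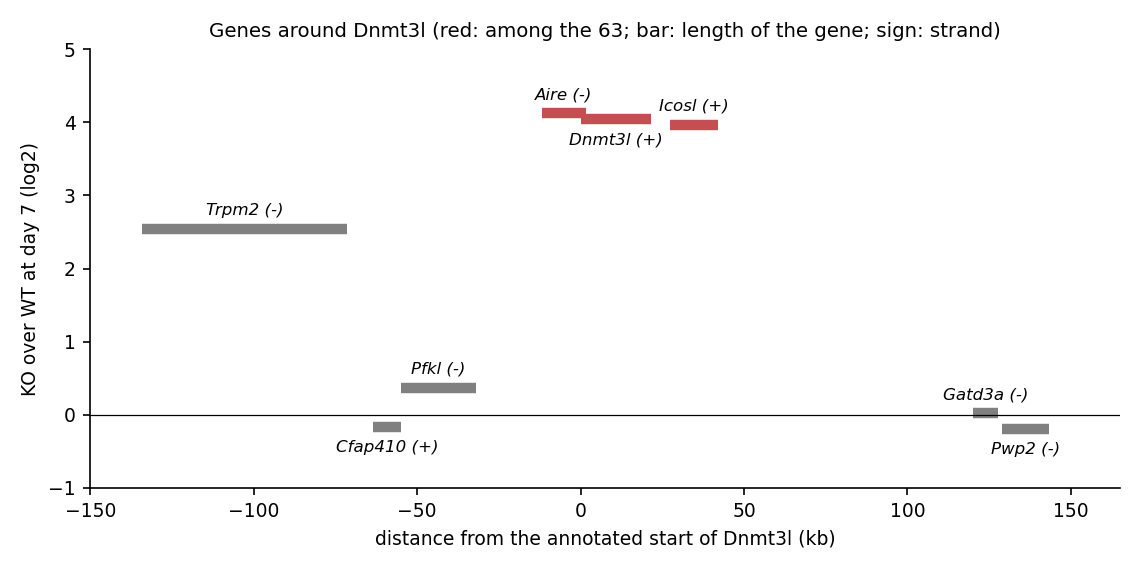
Map of the genes around Dnmt3l, with distance from its annotated start in kb on the horizontal axis and the KO over WT log2 fold change at day 7 on the vertical axis; each bar spans 1 gene, red for the silent genes and grey for the others. Aire, Dnmt3l and Icosl sit together near 4, Trpm2 at 2.54, and the remaining neighbours between -0.19 and 0.37. Those remaining neighbours were already at 45.7% to 95.3% of the ESC level in WT at day 7.

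A second group of neighbours was a zinc finger cluster on chromosome 13, within chr13:65689613-66854871, which held 8 of the 63 genes (Gm19428, Gm48218, Gm10324, Gm46426, 2410141K09Rik, Gm46427, Zfp640 and Gm10323). Their RNAs had no read in WT or KO MEFs and were at most 0.126% of the ESC level in KO at day 5. At day 7 they were at 0.285% to 1.59% in WT (median 0.712%) and at 2.75% to 5.44% in KO (median 4.67%), and 8 of 8 were called higher. These genes are near copies of each other: between 9.0% and 58.2% of the 75-base stretches of their exons also occur in another gene, so the values of single genes are uncertain and the 8 are not 8 separate observations. For Zfp640 the counts were 5.07, 19.13 and 11.3 in WT and 64.3, 96.3 and 74.4 in KO (log2 fold change 2.73, FDR = 1.68e-13). For 2410141K09Rik they were 4.06, 18.1 and 1.03 in WT and 64.3, 108 and 57.2 in KO (log2 fold change 3.30, FDR = 1.67e-17). For Gm10324 they were 1.01, 12.1 and 1.03 against 23.1, 38.5 and 11.8, so its WT replicate 2 slightly exceeded its KO replicate 3 (log2 fold change 2.37, FDR = 6.19e-05). In all 3, WT replicate 2 was the highest WT library.

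The likeness of the cluster extends to the start regions, which is why 3 of them are shown. They are the 250 bases before the RefSeq start (GRCm38.p6), 5′ to 3′ on the strand of the gene with each CpG in capitals, at chr13:66113203-66113452 (plus strand), chr13:66441119-66441368 (minus strand) and chr13:66680804-66681053 (minus strand).
Gm10324: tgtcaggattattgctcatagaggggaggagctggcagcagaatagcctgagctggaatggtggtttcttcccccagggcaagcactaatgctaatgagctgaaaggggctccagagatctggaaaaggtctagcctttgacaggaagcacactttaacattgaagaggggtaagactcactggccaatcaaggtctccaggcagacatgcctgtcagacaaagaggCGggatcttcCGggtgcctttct
2410141K09Rik: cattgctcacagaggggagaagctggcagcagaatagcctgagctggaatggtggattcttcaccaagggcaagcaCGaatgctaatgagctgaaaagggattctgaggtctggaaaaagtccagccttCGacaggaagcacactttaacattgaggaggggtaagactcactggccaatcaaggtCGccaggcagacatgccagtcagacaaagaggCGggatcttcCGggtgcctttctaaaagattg
Zfp640: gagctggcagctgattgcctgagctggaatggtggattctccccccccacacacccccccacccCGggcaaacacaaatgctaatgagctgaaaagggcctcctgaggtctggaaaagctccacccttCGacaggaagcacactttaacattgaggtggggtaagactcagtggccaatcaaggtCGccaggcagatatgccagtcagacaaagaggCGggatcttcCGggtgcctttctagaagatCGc
Aligned base by base, these 3 were 80.8% to 89.6% identical to each other, whereas each was 55.2% to 62.0% identical to the stretches of Aire, Dnmt3l and Icosl. They hold 2, 5 and 6 CpG.

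Among regulators of transcription, 3 further genes were on at day 7. Gbx2, a homeobox factor of the LIF-dependent network, had 0, 10.1 and 11.3 counts in WT and 46.2, 56.9 and 58.1 in KO, 6.89% of the ESC level (log2 fold change 2.92, SE 0.72, FDR = 0.000445). Klf15, another Krüppel-like factor, was at 6.31% (log2 fold change 2.41, FDR = 2.43e-11), and Dmrt1, a factor of testis determination, at 4.27% (2.83, FDR = 1.20e-06). Rex2, a zinc finger gene of which 82.4% of 75-base stretches are shared with Zfp600, had 139, 198 and 111 counts in WT and 341, 487 and 341 in KO. It was called (log2 fold change 1.38, FDR = 4.61e-08) but lay at 2.11%, barely on, as did Zfp600 at 2.10%.

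Genes of germ cells and oocytes gave a divided picture. Ooep, a part of the maternal complex under the oocyte membrane, had 12.2, 22.2 and 9.26 counts in WT and 123, 151 and 121 in KO at day 7, 9.91% of the ESC level, and the groups lay far apart (log2 fold change 3.17, SE 0.35, FDR = 8.18e-18). Mageb16 (chrX:79623231-79671435), an X-linked MAGE family gene, had 21.3, 29.2 and 25.7 counts in WT and 172, 213 and 117 in KO, 10.6% (log2 fold change 2.72, FDR = 1.37e-27). Its processed copy Mageb16-ps2 on chromosome 6 was at 10.3%, but all of its 75-base stretches occur in Mageb16, so the pair may be 1 signal. Trap1a, an X-linked tumour antigen gene, went from 3.04, 9.06 and 6.17 counts in WT to 75.3, 106 and 87.1 in KO, at 3.48% (log2 fold change 3.88, FDR = 1.09e-21). The intronless, testis-type copies Rpl10l, Rbmxl2 and D1Pas1 were at 2.94%, 3.44% and 2.38% with log2 fold changes of 3.67, 3.01 and 2.36. Of the meiotic genes, Sycp3, an axial element of meiotic chromosomes, had 7.10, 26.2 and 9.26 counts in WT and 17.1, 16.6 and 12.7 in KO (log2 fold change 0.12, FDR = 0.891). Hsf2bp, a meiotic recombination factor, had 5.07, 8.06 and 5.14 against 8.03, 13.1 and 10.9 (0.82, FDR = 0.151). Thus Ooep and the X-linked genes were on, while neither meiotic gene passed the test.

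The start region of Mageb16 is shown because it was the only one of the 43 searched that held the octamer ATGCAAAT, the textbook binding letters of Oct4. It is the 250 bases before the RefSeq start (GRCm38.p6) at chrX:79671436-79671685 (minus strand), 5′ to 3′, with the octamer in capitals and the rest in lower case.
Mageb16: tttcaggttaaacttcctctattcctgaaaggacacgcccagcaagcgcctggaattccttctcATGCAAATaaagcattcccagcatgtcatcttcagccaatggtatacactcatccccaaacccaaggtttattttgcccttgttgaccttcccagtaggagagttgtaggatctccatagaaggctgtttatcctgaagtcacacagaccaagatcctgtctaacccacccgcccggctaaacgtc
In the other members with a RefSeq start these letters were not in the window, of 250 bases before and 50 after the start, on either strand. The octamer was thus in 2.3% of the 43, near the 1.5% of all genes with a RefSeq start. Binding of Oct4 to Mageb16 was not tested.

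Other genes far along at day 7 had varied roles. Rbpms2, an RNA-binding protein, had 59.8, 103 and 49.4 counts in WT and 610.5, 750.2 and 464 in KO, 15.4% of the ESC level (log2 fold change 3.10, SE 0.25, FDR = 7.58e-33), and its processed copy Gm3470, of which 78.3% of stretches are shared, was at 14.6%. Upp1, the uridine phosphorylase of pyrimidine salvage, had 100.4, 196 and 76.1 counts in WT and 837, 924 and 586 in KO, 10.9% (log2 fold change 2.65, FDR = 2.07e-09). Cacng7, a subunit of neuronal AMPA receptor complexes, had 12.2, 8.06 and 13.4 counts in WT and 71.3, 98.0 and 50.8 in KO, 11.1% (2.71, FDR = 2.15e-11). In each of these the groups did not overlap. Grik3, a kainate receptor, Bcam, a laminin receptor, Pmel, a melanosome protein, and Mymx, a muscle cell fusion peptide, were at 8.10%, 7.23%, 6.42% and 5.78%. These are genes better known from differentiated tissues, here chosen because ESCs transcribe them.

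Apoe, the lipid transport protein, passed 2% narrowly. It had 152, 265 and 144 counts in WT and 866, 941 and 693 in KO at day 7, 2.13% of the ESC level (log2 fold change 2.15, SE 0.20, FDR = 1.56e-25). Ifitm1, an interferon-inducible membrane protein of early germ cells, was at 2.09%, and Ephx2, an epoxide hydrolase, at 2.01%.

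For 16 genes the KO effect was itself larger at day 7 than at day 5 by a test of the difference, against 1.24% of the 15200 genes tested, and for none was it smaller, against 0.487%. They were Apoe, Bcam, D1Pas1, EU599041, Ephx2, Fgd1, Gm3470, Gm8935, Icosl, Ifitm1, Mageb16, Mageb16-ps2, Rbmxl2, Rbpms2, Rex2 and Upp1. The effect grew by 2.38 on the log2 scale for Apoe (SE 0.32, FDR = 2.48e-10), by 2.31 for Fgd1 (SE 0.36, FDR = 1.06e-07) and by 3.49 for Icosl (SE 0.71, FDR = 0.000135). EdgeR called 7 of the 63. The WT levels of both days enter this test and were capped by the choice of genes. The counts of larger and smaller effects are therefore no independent support for a direction. Dnmt3l was not among the 16, with a difference of 1.70 and an SE of 0.95 (FDR = 0.326). Between days 3 and 5 the KO effect differed for none of the 45 genes with an FDR by DESeq2, nor for any by edgeR, against 0.0658% of all genes with a higher effect at day 5 by DESeq2; at an unadjusted p under 0.05 it was higher for 4 and lower for 2.

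Not all of these genes were silent from the start. In WT MEFs 19 of the 63 were above 2% of their ESC level and 8 above 10%. Cacng7 had 490.4, 486 and 454 counts in WT MEFs, 72.2% of its ESC level, Ldhb, a lactate dehydrogenase subunit, was at 60.6%, Fgd1, an activator of CDC42, at 43.5% and Apoe at 13.03%. These were genes of fibroblasts and of pluripotent cells alike, with a gap between. Others of the 19 were described above: Icosl, Rbpms2, Gm3470, Upp1, Klf2, Gbx2, Klf15, Bcam, Grik3, Dnah8, Ephx2 and Ifitm1. Where these were on at day 5 or day 7, it was not a first appearance.

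In the KO arm, all 19 fell between MEFs and day 3, against 26.0% of all genes falling and 20.0% rising. The choice of genes capped the WT level at 2% at day 3. No gene of the set differed between KO and WT in MEFs or at day 3. The fall in KO is therefore largely given by the choice of the 19 and is no separate result. KO MEF replicate 3 differed from the other MEF replicates of its group by 99.2 and 103 times the variance of counting, and without it 22 of the 63 fell, as with it, and 12 rose in place of 15. Apoe fell by 6.74 on the log2 scale (SE 0.21, FDR = 1.83e-214), to 66.0, 34.9 and 51.5 counts, and Cacng7 fell by 5.60 (SE 0.37, FDR = 1.06e-50). The median of the 19 in KO cells was 8.15% before reprogramming, dropped to 0.528% by day 3 and 0.367% by day 5, and stood at 6.31% by day 7, when 16 of the 19 were higher in KO than in WT. Of the other 44 genes, 15 rose and 3 fell between MEFs and day 3 in KO cells, and 34 were higher in KO at day 7, with a median of 3.35%. So both the genes that had been lost from fibroblasts and the genes that had never been on were among those higher in KO at day 7. Rises from MEFs to day 3 included Rex2 by 2.46, Zfp600 by 2.37 and Zfp534 by 1.59 on the log2 scale.

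**Figure D5:**
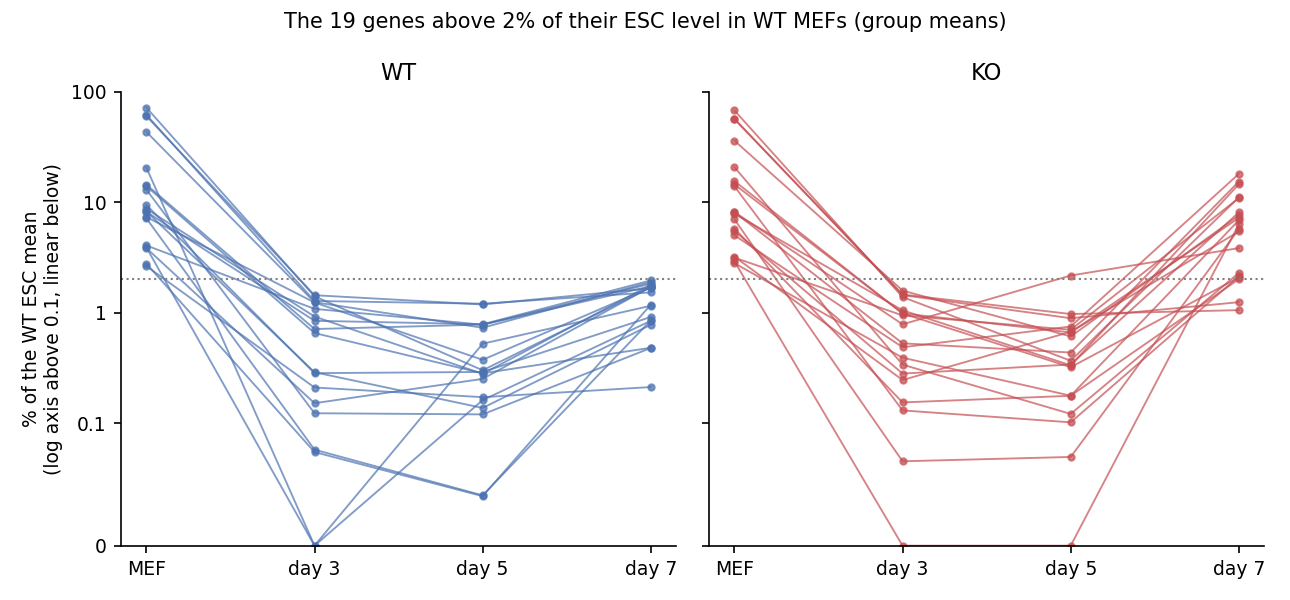
Group means of the 19 genes above 2% of their ESC level in WT MEFs, as a percentage of the WT ESC mean (log axis above 0.1, linear below), in WT (left, blue) and KO (right, red), 1 line per gene. All 19 start above the dotted 2% line and pass below it at day 3 in both arms; at day 7 the WT means lie under the line by the choice of genes, and the KO median is 6.31%.

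The 13 genes not called at day 7 were 1700097N02Rik, Dnah8, Eprn, Hsf2bp, Ina, Ldhb, Ldhb-ps, Napsa, Patl2, Pla2g1b, Platr14, Sycp3 and Zfp534. Zfp534, a zinc finger gene with a high ESC level, had 204, 213 and 129 counts in WT and 231, 387 and 319 in KO (log2 fold change 0.78, FDR = 0.00650), so it passed on FDR but not on fold. Ldhb had 115, 136 and 113 counts in WT and 91.4, 115 and 66.3 in KO (-0.42, FDR = 0.389), and its processed copy Ldhb-ps had a log2 fold change of -0.54 (FDR = 0.390). They were the only 2 of the 63 with a negative value. Pla2g1b, a secreted phospholipase, had 3.04, 5.03 and 12.3 against 6.02, 13.1 and 20.0 counts (0.95, FDR = 0.161), and it passed without WT replicate 3 (1.70, FDR = 0.0418). Napsa, an aspartic protease, was at 0.240% of its ESC level, too few reads to show a difference.

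The calls at day 7 stood on more than 1 library. On leaving out each day 7 library in turn and under the other settings tried, 46 of the 50 kept their call throughout. Gm21411, Slc27a2, Shfl and Zfp600 lost it without KO replicate 2, Zfp600 also without WT replicate 3 and Shfl also with the compared groups fitted alone. Calls were made among genes with and without shared sequence: of 35 genes with no shared 75-base stretch 26 were called, of 21 with over 10% shared 18 were, and of the 21 that shared none and overlapped no other exon, 17 (81.0%) were.

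Of 47 pluripotency genes on a list drawn up with earlier results of these data known, 21 were higher in KO at day 5 and 35 at day 7, and none was lower at either, beside 0.808% and 3.9% of all genes higher at these days. The list holds genes that the paper reported as higher in KO, such as Nanog and Esrrb, so its counts are no independent support. The 5 of the 47 that belong to the silent set (Klf2, Nr0b1, Dnmt3l, Rex2 and Gbx2) were higher in 2 cases at day 5 and in 5 at day 7, and the 42 others in 19 and in 30. Of 44 germline and piRNA genes, 3 were higher at day 5 and 14 were higher and 3 lower at day 7, when 3.9% and 4.32% of all genes were higher and lower; Ooep was the 1 called among its 3 silent members, with Sycp3 and Hsf2bp not passing. A list of 25 genes of the two-cell-like state and the Prame family, none of them in the set, had no call at day 5 by DESeq2 and 2 higher and 1 lower at day 7, beside the same shares of all genes. Whether the silent genes differed from the others on these lists was not tested.

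In established pluripotent cells few of these genes were called between KO and WT. The WT means of iPSCs and ESCs were themselves used to choose the genes, through the lower limit on level. The counts of higher and lower genes in iPSCs and in ESCs are therefore not independent of the choice. In iPSC clones 1 of the 63 was higher and 1 lower in KO, against 3.95% and 0.557% of all genes. D1Pas1, a testis-type copy of the RNA helicase Ddx3x, had 626, 751 and 1046 counts in WT clones and 2180.3, 1704 and 1610.2 in KO clones (log2 fold change 1.18, SE 0.20, FDR = 2.50e-07). Napsa had 766, 755 and 853 in WT and 317, 412 and 302 in KO clones (-1.20, SE 0.18, FDR = 1.05e-08). In both the groups were apart. By FDR alone 7 were higher and 6 lower, against 9.72% and 6.63% of all genes. The count was 5 higher without iPSC KO replicate 2 or without WT replicate 3, and 4 lower without WT replicate 1. One KO clone also stood apart in its primitive endoderm markers, with a summed level of 2308 counts against 139 to 177 in WT clones, and its part in these values was not tested.

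In ESCs no gene of the set was called in either direction, by DESeq2 or edgeR, against 0.758% of all genes higher and 0.463% lower, although at an unadjusted p under 0.05 9 were higher and 1 lower. By FDR alone 5 were higher in KO ESCs (D1Pas1, Hsf2bp, Mcf2, Ooep and Rpl10l), against 5.69% of all genes. D1Pas1 had 1031, 963 and 1074 counts in WT and 2039.5, 1541 and 1711 in KO ESCs (log2 fold change 0.79, FDR = 0.00216), the same direction as in iPSCs. Napsa had 644, 682 and 683 against 623, 950.0 and 939, and its KO effect in iPSCs was lower than in ESCs by 1.52 on the log2 scale (SE 0.26, FDR = 6.14e-06; edgeR FDR = 0.0151). Napsa was the 1 gene of the 63 whose effect differed between these kinds of pluripotent cell, where 0.0499% of all genes had a lower and 0.549% a higher effect in iPSCs. The WT levels of iPSCs and ESCs enter this test and were part of the choice of genes, so its count is not independent of that choice.

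Applying the same limits to the KO libraries, with KO ESCs as the reference, gave 25 silent genes in place of 63. The WT and KO sets shared 16, which is 25.4% of the WT set and 64.0% of the KO set. Among the 16 were Sycp3, Hsf2bp, Pla2g1b, Ldhb and Patl2, and also 9 genes called higher at day 7 (D1Pas1, Ephx2, Gm10324, Gm8935, Mcf2, Rex2, Rpl10l, Slc27a2 and Zfp600). All of these but Gm8935 and Slc27a2 had been counted as on against WT ESCs, so 7 of the 48 genes on at day 7 still passed as silent against KO ESCs. The other 47 genes of the WT set failed the limits in KO. The 9 genes silent by the KO libraries alone (Ccdc92b, Hormad1, Tex14 and 6 Zscan4 genes) were all under 500 counts in WT iPSCs or ESCs. This comparison was added after the values had been seen.

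Start regions were found in RefSeq for 43 of the 63 genes. In the 300 bases around the start the median number of CpG was 14, against 19 for all 12866 genes with a start and 23 for the 5451 that were high in pluripotent cells and not silent. At least 15 CpG were present in 46.5% of the 43, 63.5% of all and 81.1% of the high group, and at most 5 in 25.6%, 14.4% and 3.9%. The letters of common pluripotency factor motifs, sought on both strands and counted for each motif by itself, were rare everywhere: ATGCAAAT in 2.3% of the 43 and 1.5% of all, the SOX letters CATTGTT in 2.3% and 1.9%, the KLF letters GGGTGTGG in 4.7% and 4.0%, and the ESRRB letters TCAAGGTCA in none of the 43 and 0.3% of all. The GC box GGGCGG was in 58.1% and 60.4%. The start regions of these genes thus held fewer CpG than those of other genes active in pluripotent cells, as a description of the 43 that matched.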

How the data were processed

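RNA was read from 36 bulk libraries made with a stranded kit. Per the labels and the study's methods, the authors checked reads with FastQC, trimmed them with Cutadapt, mapped them to GRCm38.p6 with STAR and counted them per gene with Rsubread; versions, and whether strand was used, are not given in the sources used here. The deposited counts are raw reads per gene, and the deposited normalised counts, a signal scaled by 1 DESeq2 size factor per library, equalled counts recomputed here to within a relative difference of 5.05e-15. Deposited tables of the authors' own comparisons (fold changes and p-values) and a batch-corrected log table were not used beyond gene symbols.

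All 36 libraries were fitted in DESeq2 1.42.0 (R 4.3.3) as 12 groups with the Wald test, and p-values were adjusted by Benjamini and Hochberg over all genes tested (FDR). A call needed an FDR under 0.05 and a log2 fold change past 1. Genes DESeq2 left without an FDR were not called. Alternatives were edgeR 4.0.16 (quasi-likelihood), TMM scaling, a filter of 10 counts in 3 libraries, the compared groups alone, FDR alone, leaving out each library, other limits for choosing genes or for counting one as on, and a replicate block. Replicate numbers deviated together at day 7 (correlations of 0.338, 0.167 and 0.397 between same-numbered WT and KO libraries), where the block left 50 genes higher. The scripts were tested on simulated data.

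Replicates of a group differed by 3.16 to 103 times the variance of counting alone, so no pair agreed within sampling noise; separate preparations of the same culture are not told apart by this. The genes and gene lists were chosen with earlier results of these data known. Genes named in full were those with the 10 highest KO levels at day 7 relative to ESCs, those called at day 5, in MEFs, at day 3, in iPSCs or in ESCs, the 5 uncalled genes highest per kilobase in ESCs, and those on the lists; others, such as Apoe, Trap1a, Zfp640, Fgd1 and the zinc finger cluster, were chosen after their values were seen. Start regions came from RefSeq (GRCm38.p6), within 20 kb of the annotated gene start, read with Biopython 1.88 and pandas 2.3.3 (Python 3.11.15).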

Additional observations from a re-analysis of the deposited data

Results flagged for a closer look

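A test of the difference itself found that the KO effect was not the same at day 7 and day 5 for 16 of the 63 genes, each larger at day 7. The same test between iPSCs and ESCs found 1 gene, Napsa, whose KO effect was lower in iPSCs by a difference of -1.52 on the log2 scale. The WT levels in both tests were part of the choice of genes, so neither count is independent of it. Why these effects differed was not tested.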

How the results depend on the processing

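The counts that moved by over 1.5 times were these, and the cause was not tested except that a stricter limit passes fewer genes. The number of genes higher at day 5 was 2 with edgeR. In iPSCs the genes higher and lower in KO were 7 and 6 by FDR alone, and 2 were lower with edgeR; in ESCs 5 were higher by FDR alone. Fitting the compared groups alone gave 2 genes falling from day 3 to day 5 and 7 rising from MEFs to day 3 in KO, and edgeR gave 7 genes with a larger effect at day 7 than day 5. Genes on at day 5 were 0 at 5% and 0 at 10% of the ESC level, and at day 7 26 and 9. The set itself would hold 33 genes at a ceiling of 1%, 116 at 5%, 104 with a level of 200, 30 with 1000 and 25 by the KO libraries. The 10% level, the KO libraries and the MEF to day 3 comparison were added after seeing the data.

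Leaving out 1 library gave 0 to 1 genes higher at day 3 (1 without KO replicate 1), 3 to 4 at day 5, 47 to 51 at day 7, 1 to 5 higher and 1 to 4 lower in iPSCs, 51 to 52 rising from day 5 to day 7 in KO, 11 to 14 rising from MEFs to day 3, and 12 to 18 with a larger effect at day 7. In iPSCs the higher count was 2 without WT replicate 1, 5 without WT replicate 3 and 5 without KO replicate 2, and the lower count 4 without WT replicate 1 and 3 without KO replicate 3. Without iPSC WT replicate 3, 1 gene had a higher KO effect in iPSCs than in ESCs.

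With the replicate block 4 genes were higher at day 5, 50 at day 7 and 53 rose from day 5 to day 7 in KO, and no count moved by over 1.5 times. Same-numbered libraries correlated by 0.268, 0.0916 and 0.226 at day 5, 0.458, 0.0962 and 0.281 at day 3, and -0.144 to 0.260 in the other stages. At days 3 and 5 same-numbered libraries thus deviated together, as at day 7, while in the other stages the sign varied. The study's methods give library preparation date as an example of a batch effect taken out for display. Among named genes, 496 alternative values kept their call, 14 moved across the threshold (6 to a call, 8 from one) and none reversed. Depth limits genes such as Napsa at day 7, whose counts were near the limit that 0 reads allow.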
